A study of Homo sapiens with 8 samples.

Results

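Type I interferon response genes were followed in ribosome footprints of human skin fibroblasts of the established line BJ. The set had 41 members, named by gene symbol from the known response to type I interferon. No measured value entered the rule, though the set was drawn up with earlier results of these data known. Of these, 36 had a row in both deposited tables, which held 11546 genes without 4-OHT and 11079 with it (10685 in both). IFI27, IFI44, IFITM2, STAT2 and RSAD2 were not listed in either table. Ribosome profiling sequences the stretches of mRNA that ribosomes protect from nuclease, so how much of an mRNA there is and how well it is translated both enter a value.

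All cells carried the label BJ-HRAS, after HRAS, a GTPase of growth signalling that causes senescence in fibroblasts when mutated to its oncogenic form. 4-OHT, (Z)-4-hydroxytamoxifen, is widely used to switch on proteins fused to an estrogen receptor domain. The labels do not say how HRAS is linked to 4-OHT in these cells. The 4 groups were WT cells without 4-OHT, SNORA13 KO cells without 4-OHT, WT cells after 7 days of 100 nM 4-OHT, and SNORA13 KO cells after the same treatment. The untreated libraries were listed at day 0 and the treated ones at day 7. An effect of 4-OHT thus cannot be told apart from one of 7 days in culture. SNORA13 is a small nucleolar RNA, and KO means that it was knocked out. The genotype rests on the labels, since SNORA13 was not found in either table. Each genotype was represented by 2 clones, 15 and 54 for WT and 66 and 69 for KO, and each clone was collected without and with 4-OHT, which gave 8 libraries. Each clone counted as 1 replicate, so n = 2 in every group.

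Type I interferons signal through the receptor subunits IFNAR1 and IFNAR2 and the kinases JAK1 and TYK2 to a transcription factor complex that contains IRF9. That complex binds the interferon-stimulated response element (ISRE) in promoters and switches on genes whose products sense viral RNA, block viral entry and translation, or modify proteins. Fibroblasts are a classical source and target of these interferons, and many of the genes keep a basal level in culture without added interferon.

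The deposited values were read as RPKM (reads per kilobase of gene span, introns included, scaled to library size), and approximate reads behind each value were recovered from them. Recovered reads ranged from 790375 to 1709827 per library without 4-OHT and from 190758 to 1685953 with it, where KO clone 66 was the shallowest. RPKM over the span is lower for a gene with long introns, so the levels of different genes are not compared. All 13 listed fibroblast markers together held 6.84% to 8.90% of a library's reads without 4-OHT and 2.86% to 3.48% with it. Of 10 leukocyte markers, 5 were listed, with 0.0139% to 0.0293% of reads without 4-OHT and 0.0262% to 0.0408% with it, and CD3E, LYZ, ITGAM, MS4A1 and TYROBP were not listed. The listed ones were CD68 (at most 151 RPKM in any library), CD14 (50.4), HLA-DRA (0.226), PTPRC (0.0641) and CSF1R (0.0197). Of 5 plasmacytoid dendritic cell markers only TCF4, which other cells also express, was listed, at 0.0156% to 0.0255% without and 0.0108% to 0.0154% with 4-OHT. Of 9 keratinocyte and epithelial markers, 5 were listed (0.0224% to 0.0429%, then 0.0129% to 0.0256%), KRT5, KRT14, KRT1 and EPCAM not among them. These were KRT18 (at most 94.6 RPKM in any library), KRT10 (10.2), DSP (0.873), KRT8 (0.288) and CDH1 (0.0386), and KRT5, KRT14, KRT1 and EPCAM had no row. The part of these shares in the results below was not tested.

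The promoters of the members are shown first, as a description. The members were named from the known response to type I interferon, which acts through the ISRE. The choice of members thus favours a high share of ISRE matches. RefSeq windows from 250 bases before to 50 bases after the annotated start (GRCh38.p14) were matched for 34 of the 41 members, 9 of them with several windows. The ISRE was searched on both strands as GAAA, 2 bases of any kind, and GAAA again. It was found in 23 of the 34 members (67.6%), against 1195 of 27305 genes in the whole table (4.38%) and 1255 of 35116 windows (3.57%). The shorter form GAAANNGAA, which is contained in the longer one, was found in 24 members (70.6%) and in 9.86% of all genes. The motif TTCNNNGAA (GAS, the gamma-activated sequence), which reads the same on both strands, was found in 9 members (26.5%) and in 9.38% of all genes. A match is a description of letters, not evidence of a site in use, and a window without a match says only that these letters are not in it.

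Of the 30 listed members with a window, 20 held an ISRE match and 12 held 2 or more in 1 window. The windows of the 34 members held 46 matches at 42 distinct places, and 37 of the 46 began within 150 bases upstream of the start. DTX3L and PARP9 are transcribed away from each other, and their windows share 1 match at chr3:122564332-122564341. IFI6, IFIT1 and MX1 are shown with IFIT5 and IRF1, because IFI6 and IFIT1 fell far with 4-OHT, MX1 had the largest genotype ratio, IFIT5 had small ratios and IRF1 did not pass the test. Capitals mark the ISRE matches, on either strand, in the first 4 sequences and the GAS match in IRF1, which had no ISRE match.
IFI6 (chr1:27672143-27672442, minus strand): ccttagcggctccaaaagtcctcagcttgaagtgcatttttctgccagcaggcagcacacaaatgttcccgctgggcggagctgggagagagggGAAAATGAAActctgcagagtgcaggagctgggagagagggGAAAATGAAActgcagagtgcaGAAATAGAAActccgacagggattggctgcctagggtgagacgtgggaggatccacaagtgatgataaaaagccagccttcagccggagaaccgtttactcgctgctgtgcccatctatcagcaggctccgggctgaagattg
IFIT1 (chr10:89392373-89392672, plus strand): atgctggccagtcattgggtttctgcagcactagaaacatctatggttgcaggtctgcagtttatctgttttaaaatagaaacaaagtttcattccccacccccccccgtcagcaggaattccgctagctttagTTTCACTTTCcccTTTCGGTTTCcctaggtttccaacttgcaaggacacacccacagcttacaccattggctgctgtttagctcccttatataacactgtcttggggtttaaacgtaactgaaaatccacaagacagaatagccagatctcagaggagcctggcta
IFIT5 (chr10:89414318-89414617, plus strand): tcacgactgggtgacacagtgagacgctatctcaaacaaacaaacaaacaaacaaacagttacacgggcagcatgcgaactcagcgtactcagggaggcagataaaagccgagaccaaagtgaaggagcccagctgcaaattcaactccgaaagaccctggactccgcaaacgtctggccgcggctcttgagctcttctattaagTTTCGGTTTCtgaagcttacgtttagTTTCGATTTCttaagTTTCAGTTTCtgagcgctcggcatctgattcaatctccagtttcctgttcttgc
MX1 (chr21:41420308-41420607, plus strand, 1 of 3 windows): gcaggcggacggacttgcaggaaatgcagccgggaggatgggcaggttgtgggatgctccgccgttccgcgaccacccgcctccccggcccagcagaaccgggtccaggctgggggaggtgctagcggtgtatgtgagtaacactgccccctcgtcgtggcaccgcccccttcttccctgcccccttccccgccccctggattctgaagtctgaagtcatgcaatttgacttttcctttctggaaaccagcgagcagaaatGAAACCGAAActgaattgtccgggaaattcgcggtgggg
IRF1 (chr5:132490724-132491023, minus strand): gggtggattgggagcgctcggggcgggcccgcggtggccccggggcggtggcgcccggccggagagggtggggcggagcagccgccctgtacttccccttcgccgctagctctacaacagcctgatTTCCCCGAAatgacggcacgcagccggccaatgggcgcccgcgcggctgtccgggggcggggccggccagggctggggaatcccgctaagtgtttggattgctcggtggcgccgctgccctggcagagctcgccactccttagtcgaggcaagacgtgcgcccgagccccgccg
The IFI6 and IFIT5 windows each held 3 matches, the IFIT1 window held 2, and the MX1 window shown held 1 match that began 12 bases after the start.

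**Figure D1:**
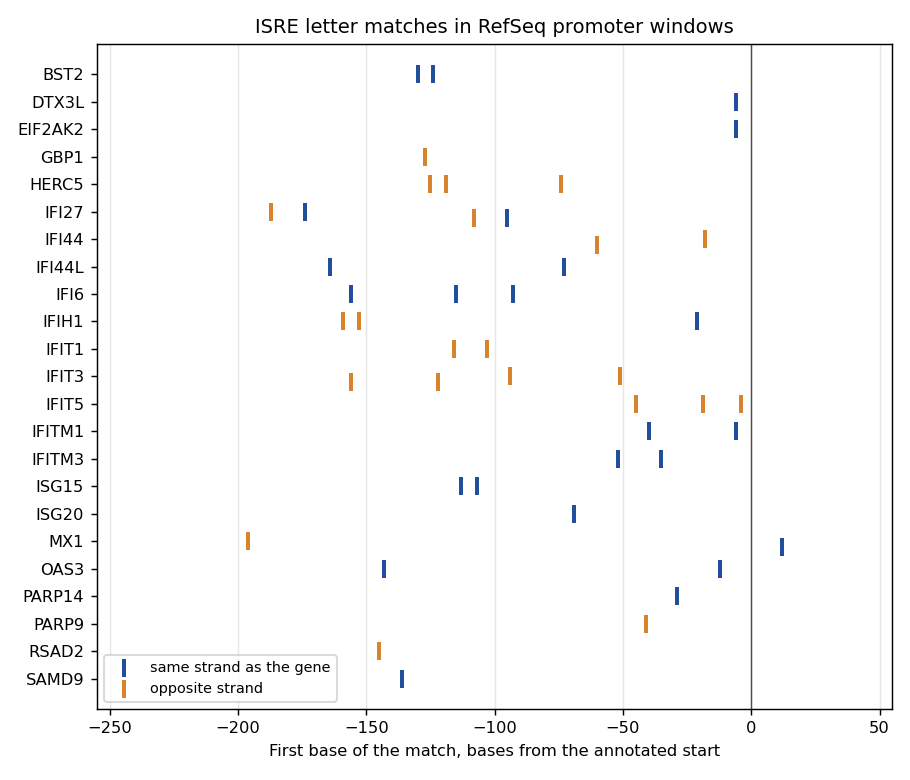
Position of each ISRE match in the RefSeq windows of the 23 members that held one, in bases from the annotated start (x axis), with the strand given by colour; several windows of 1 gene are drawn at slightly different heights. Of the 46 matches, 37 began within 150 bases upstream of the start.

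Most of the interferon response genes fell with 4-OHT in both genotypes. The 36 listed members held 0.784% (clone 15) and 1.17% (clone 54) of the reads of the WT libraries without 4-OHT, and 0.115% and 0.109% with it. In the KO clones they held 1.03% (clone 66) and 1.54% (clone 69) without 4-OHT, and 0.114% and 0.134% with it. All 4 libraries with 4-OHT thus lay below all 4 without it, and the 4 shares with 4-OHT were close to each other across clones. IFI6 alone made up a large part of the shares without 4-OHT, and without it the other 35 members held 0.420% to 0.688% of reads before and 0.0916% to 0.118% after treatment.

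**Figure D2:**
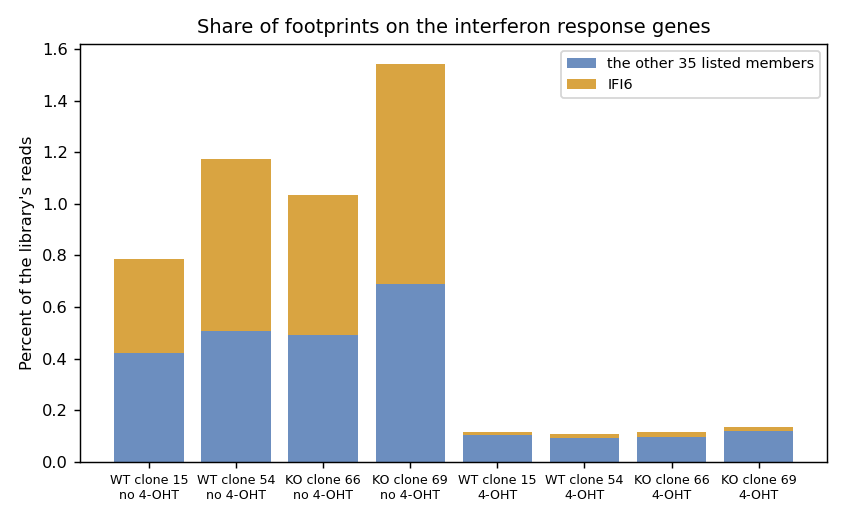
Share of each library's recovered reads that fell on the 36 listed interferon response genes (bars, y axis in percent from 0), divided into IFI6 and the other 35. The 4 libraries with 4-OHT lie between 0.109% and 0.134%, below the 0.784% to 1.54% of the libraries without it.

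Changes were tested with limma-trend on log2(RPKM + 1) over all 8 libraries, with p-values adjusted by Benjamini-Hochberg over 8774 genes and a threshold of 0.05, and a gene past it is said to have risen or fallen. In the WT clones 24 of the 36 members fell and 0 rose, where 707 of all 8774 tested genes (8.06%) fell and 13.5% rose. In the KO clones 28 fell and 0 rose, where 929 genes (10.6%) fell and 17.1% rose. The read filter was at least 10 reads in at least 2 libraries. All 36 members reached it in the libraries without 4-OHT, and 24 reached it in those with 4-OHT. MX1, MX2, IFI44L, IFIT2, ISG15, IFIH1, XAF1, USP18, HERC5, CMPK2, ISG20 and OASL reached it only without 4-OHT. A member of this kind enters the test only if it is high without 4-OHT, which favours a fall. The counts and medians given here include these members. Of them, CMPK2, ISG20 and OASL fell in neither genotype, and USP18 and HERC5 fell only in KO. The same filter held for all tested genes. The median log2 change of the members was -1.23 in WT and -1.52 in KO, against 0.06 and 0.05 over all tested genes. Between 1 clone's libraries without and with 4-OHT, 33 of the 36 members were lower in each of the 4 clones, as were 22.6% of all tested genes. For 30 members all 4 libraries with 4-OHT lay below all 4 without it, as for 15.9% of all tested genes. The exceptions were CMPK2, IRF1, IRF7, ISG20, OASL and UBE2L6.

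In each genotype 32 members had more than 3 approximate reads, before rounding, in both groups, not all of them the same (MX2 only in WT, OASL only in KO). In treated KO, ISG15 (3.04) and MX2 (2.9985) lay on either side of this cut, although both round to 3 reads. MX2, left out in KO, had means of 3.42 RPKM without and 0.0322 with 4-OHT, so the KO maximum rests on the cut. Over the 32 members of each genotype, the ratio of mean RPKM without to with 4-OHT ran from 1.08 to 39.8 in WT (median 5.26) and from 0.822 to 41.8 in KO (median 8.08). The added 1 makes a log2 change smaller than such a ratio, most of all for low values. Since each treatment fills a table of its own, 4-OHT and a batch of libraries cannot be told apart. The same holds for 4-OHT and the 7 days in culture, since no untreated library was listed at day 7. The counts of members that fell changed little without the shallow treated library of KO clone 66. With either library of WT clone 54 left out, fewer members fell in WT, as did fewer of all tested genes. Such fits leave 1 library in a group. Over all alternative fits the members' median log2 change ran from -2.36 to -1.17 in WT and from -2.89 to -1.46 in KO.

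**Figure D3:**
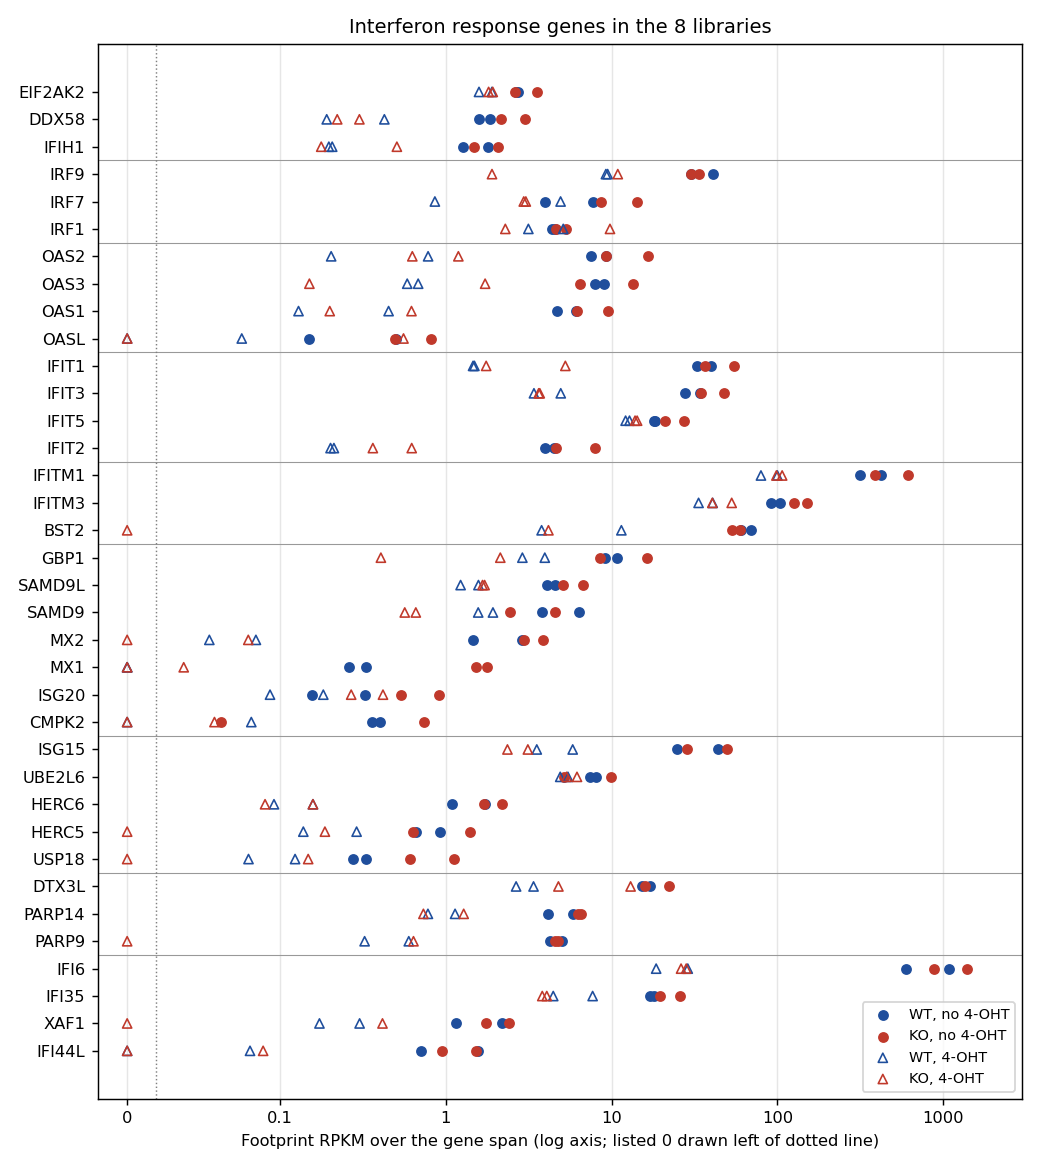
RPKM of the 36 listed members in the 8 libraries (log x axis, listed zeros drawn left of the dotted line), ordered by role with lines between roles; circles are libraries without and triangles libraries with 4-OHT, blue WT and red KO. For 30 members every triangle lies left of every circle.

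IFI6, a small membrane protein that restricts flaviviruses, had the largest fitted log2 fall in both genotypes. Its RPKM (chr1:27666064-27672192) was 595 and 1083 in WT clones 15 and 54 without 4-OHT and 18.6 and 28.8 with it. In KO clones 66 and 69 it was 884 and 1393 without and 28.2 and 26.2 with 4-OHT. The libraries with and without 4-OHT were far apart, and within each treatment the WT and KO clones overlapped. The fall was 35.4-fold in WT (log2 change -5.06 ± 0.36 SE, limma adjusted p = 3.46e-04) and 41.8-fold in KO (-5.30 ± 0.36, adjusted p = 2.42e-04). By limma-voom on recovered reads, MX2 had a larger log2 fall in KO than IFI6 (-5.70 against -5.43), with 0 and 3 treated reads. In WT the limma-voom values were -5.13 for MX2 and -5.14 for IFI6.

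The other small interferon-inducible proteins fell as well, so that all 4 listed members of this group passed the test in both genotypes. IFI35, an adaptor-like protein that forms complexes with NMI, had 17.9 and 17.0 RPKM in WT without 4-OHT and 4.45 and 7.69 with it. In KO it had 19.6 and 25.9 without and 4.07 and 3.82 with 4-OHT. IFI35 fell 2.88-fold in WT (log2 change -1.42, limma adjusted p = 0.00843) and 5.77-fold in KO (-2.25, adjusted p = 0.00129). XAF1, a binding partner of the apoptosis inhibitor XIAP, went from 1.16 and 2.19 to 0.302 and 0.173 RPKM in WT, and from 1.75 and 2.42 to 0 and 0.416 in KO. The 0 stood in the shallow library of clone 66, where 3 reads would have given 0.778 RPKM. IFI44L, an inducible protein of the IFI44 family, had 22 to 67 reads per library without 4-OHT and 0 to 2 with it.

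Of the RNA sensors, DDX58 (RIG-I) and IFIH1 (MDA5), helicases that recognise viral double-stranded RNA, fell in both genotypes. DDX58 had 1.58 and 1.86 RPKM in WT without 4-OHT and 0.427 and 0.192 with it, and 2.14 and 3.02 against 0.222 and 0.302 in KO. Its fall was 5.56-fold in WT (log2 change -1.06, limma adjusted p = 0.0101) and 9.86-fold in KO (-1.49, adjusted p = 0.00232). IFIH1 had 1.27 and 1.79 RPKM in WT without 4-OHT and 0.207 and 0.197 with it, and 1.48 and 2.07 against 0.507 and 0.178 in KO. EIF2AK2 (PKR), the kinase that halts translation on double-stranded RNA, was also lower in each clone with 4-OHT. It had 2.65 and 2.74 RPKM in WT without 4-OHT and 1.90 and 1.59 with it, and 2.63 and 3.57 against 1.81 and 1.92 in KO. The groups did not overlap, and the ratios of 1.54 in WT and 1.66 in KO did not pass the test (limma adjusted p = 0.182 and 0.106).

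The 3 listed transcription factors gave a mixed picture, with 0 falling in WT and only IRF9 falling in KO. IRF9, the DNA-binding subunit of the complex that binds the ISRE, had 29.9 and 40.8 RPKM in WT without 4-OHT and 9.46 and 9.24 with it. In KO it had 33.8 and 30.1 without and 1.90 and 10.9 with 4-OHT, the lowest value coming from 2 reads in the shallow library of clone 66. The log2 change was -2.49 in KO (limma adjusted p = 0.0170) and -1.80 in WT (adjusted p = 0.0614). By limma-voom on recovered reads the WT change of IRF9 was -1.84 (adjusted p = 3.26e-05). In WT it was called in 6 of 15 alternatives. IRF7, which amplifies interferon-alpha transcription, had 3.95 and 7.70 RPKM in WT without 4-OHT and 0.860 and 4.93 with it, which overlapped. In KO, IRF7 had 14.2 and 8.65 without and 3.04 and 2.95 with 4-OHT, which did not overlap (log2 change -1.60, limma adjusted p = 0.0647, and 0.0193 with the clone as a block).

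IRF1, a factor induced by both interferon types that can act without IRF9, moved in both directions among the clones. It had 4.37 and 4.55 RPKM in WT without 4-OHT and 5.11 and 3.15 with it, and 5.32 and 4.59 against 2.29 and 9.78 in KO. The value was higher with 4-OHT in clones 15 and 69 and lower in clones 54 and 66, of which the library of clone 66 had only 4 reads. The mean ratio without to with 4-OHT was 1.08 in WT and 0.822 in KO, and neither passed the test (limma adjusted p = 0.898 and 1.00). The KO change was -0.86 (limma adjusted p = 0.0475) without the treated library of clone 69 and 0.86 (adjusted p = 0.0699) without that of clone 66.

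The OAS enzymes make short oligoadenylates that activate RNase L, a nuclease that degrades RNA in infected cells, and all 3 catalytic members fell in both genotypes. OAS2 had 7.49 and 9.30 RPKM in WT without 4-OHT and 0.783 and 0.204 with it, and 9.31 and 16.6 against 0.629 and 1.19 in KO. It fell 17.0-fold in WT (log2 change -2.67, limma adjusted p = 0.00201) and 14.2-fold in KO (-2.83, adjusted p = 0.00134). OAS1 went from 4.70 and 6.08 to 0.452 and 0.130 RPKM in WT, and from 6.22 and 9.50 to 0.20 and 0.621 in KO. OAS3 went from 7.96 and 8.98 to 0.682 and 0.586 in WT, and from 6.47 and 13.4 to 0.151 and 1.73 in KO. OAS1 fell 18.5-fold in WT and 19.1-fold in KO, and OAS3 13.4-fold and 10.6-fold. These ratios are rough, since OAS1 and OAS3 each had 1 read in treated KO clone 66. OAS1 had 2 reads in treated WT clone 54. The 3 genes lie next to each other on chromosome 12, between positions 112906962 and 113011723. OASL, a relative without synthetase activity that lies apart from them at chr12:121017761-121039246, had 4 to 30 reads without and 0 to 12 with 4-OHT and did not pass the test in either genotype (limma adjusted p = 0.298 in WT and 0.210 in KO).

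IFIT proteins bind viral RNA and block its translation, and 3 of 4 fell in WT and all 4 in KO. IFIT1, which binds RNA that lacks cap methylation, had 32.8 and 39.9 RPKM in WT without 4-OHT and 1.49 and 1.46 with it. In KO it had 36.5 and 54.6 without and 5.26 and 1.75 with 4-OHT, the higher of the last values from 14 reads in clone 66. IFIT1 fell 24.7-fold in WT (log2 change -3.91, limma adjusted p = 8.92e-04) and 13.0-fold in KO (-3.46, adjusted p = 0.00115). IFIT3, the partner that stabilises IFIT1, went from 27.6 and 33.9 to 4.94 and 3.40 RPKM in WT, and from 34.6 and 47.9 to 3.63 and 3.69 in KO, a fall of 7.38-fold and 11.3-fold. IFIT2 fell as well (log2 change -2.12 in WT and -2.25 in KO), from 26 to 98 reads per library without 4-OHT to 1 to 3 reads with it.

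IFIT5 lies beside IFIT1 on chromosome 10 (chr10:89414568-89420997) and had 3 ISRE matches, and its ratios were among the smallest of the members. It had 18.2 and 17.9 RPKM in WT without 4-OHT and 12.8 and 12.1 with it, and 20.9 and 27.4 against 13.9 and 14.3 in KO. Neither pair of groups overlapped, and the ratio was 1.45 in WT (log2 change -0.50 ± 0.19, limma adjusted p = 0.101) and 1.72 in KO (-0.73 ± 0.19, adjusted p = 0.0263). IFIT1, IFIT2 and IFIT3 lie within the annotated span of LIPA, and IFIT5 overlaps it by 112 bases. LIPA itself had 1.17 to 1.45 RPKM without 4-OHT and 0.541 to 0.909 with it, and how shared reads were counted is not given in the sources used here.

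Of the membrane restriction factors, all 3 listed members fell in both genotypes. IFITM1 and IFITM3, neighbours on chromosome 11 that block the fusion of viruses with cell membranes, were still read in every treated library. IFITM1 had 313 and 422 RPKM in WT without 4-OHT and 79.5 and 99.9 with it, and 390 and 616 against 107 and 98.5 in KO. IFITM3 had 91.8 and 104 in WT without and 40.7 and 33.5 with 4-OHT, and 125 and 151 against 40.5 and 53.0 in KO. IFITM1 fell 4.09-fold in WT (log2 change -2.01, limma adjusted p = 0.00270) and 4.90-fold in KO (-2.24, adjusted p = 0.00154). IFITM3 fell 2.64-fold and 2.95-fold. The IFITM genes are close paralogs, and the authors' handling of reads that map to several of them is not given in the sources used here.

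BST2 (tetherin), which holds budding viruses at the cell surface, had 69.1 and 60.6 RPKM in WT without 4-OHT and 11.5 and 3.78 with it. In KO it had 53.5 and 59.1 without and 0 and 4.16 with 4-OHT. The 0 in clone 66 allows up to 5.84 RPKM at that depth. BST2 fell 8.51-fold in WT (log2 change -3.09 ± 0.73, limma adjusted p = 0.0238) and 27.1-fold in KO (-4.66 ± 0.73, adjusted p = 0.00423), and the difference of both, -1.57 ± 1.04, did not pass the test (adjusted p = 0.859).

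ISG15 is a small ubiquitin-like protein that is attached to others by a dedicated enzyme chain, and the members of this chain differed in size of change. ISG15 had 24.8 and 43.7 RPKM in WT without 4-OHT and 3.54 and 5.83 with it, and 28.5 and 49.9 against 3.13 and 2.36 in KO. Its short span gave few reads, 27 to 89 per library without and 1 to 6 with 4-OHT. It fell 7.31-fold in WT (log2 change -2.61, limma adjusted p = 0.00339) and 14.3-fold in KO (-3.38, adjusted p = 0.00113). UBE2L6, the enzyme that carries ISG15 to its ligase, had 8.05 and 7.45 RPKM in WT without 4-OHT and 5.46 and 4.90 with it, and 5.13 and 9.91 against 5.36 and 6.18 in KO. The KO groups overlapped, and neither genotype passed the test (limma adjusted p = 0.248 in WT and 0.493 in KO).

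HERC5, the main ligase for ISG15, and its relative HERC6 lie side by side on chromosome 4. HERC6 went from 1.09 and 1.73 to 0.0921 and 0.158 RPKM in WT, and from 1.71 and 2.17 to 0.0814 and 0.158 in KO, and it fell 11.3-fold and 16.2-fold. The 0.0814 of treated KO clone 66 came from 1 read. HERC5 fell in KO (log2 change -0.86, limma adjusted p = 0.0177), whereas its WT change of -0.56 did not pass (adjusted p = 0.0859). USP18, which removes ISG15 and restrains the interferon receptor, fell in KO, from 0.605 and 1.13 RPKM to 0 and 0.148 (log2 change -0.79, limma adjusted p = 0.00616). The 0 stood in the shallow library of clone 66, where 3 reads would have given 0.578 RPKM, close to its untreated 0.605. USP18 had 4 reads in treated KO clone 69, and 3 and 2 in treated WT clones 15 and 54. In WT, USP18 had 0.330 and 0.276 without and 0.0647 and 0.123 with 4-OHT (log2 change -0.25, adjusted p = 0.240).

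PARP9 and DTX3L form a complex that ADP-ribosylates and ubiquitinates proteins in antiviral signalling, and PARP14 is a related ADP-ribosyltransferase encoded nearby on chromosome 3. All 3 fell in WT, and PARP9 and PARP14 fell in KO. PARP9 went from 4.23 and 5.04 to 0.599 and 0.324 RPKM in WT (10.0-fold), and from 4.75 and 4.53 to 0 and 0.639 in KO (14.5-fold). PARP14 went from 4.12 and 5.82 to 1.14 and 0.781 in WT, and from 6.5 and 6.31 to 0.733 and 1.28 in KO.

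DTX3L, the ubiquitin ligase of the pair, had 15.3 and 17.0 RPKM in WT without 4-OHT and 3.38 and 2.66 with it. In KO it had 15.9 and 22.2 without and 13.0 and 4.78 with 4-OHT, where the 13.0 of clone 66 came from 27 reads and stood above the other 3 treated libraries. The fall in WT was 5.35-fold (log2 change -2.10, limma adjusted p = 0.00989), and the KO change of -1.14 did not pass (adjusted p = 0.0706). By limma-voom on recovered reads the KO change was -1.73 (adjusted p = 1.51e-04), and 4 of 15 alternatives called it. In the library of clone 66 with 4-OHT, PARP9 had 0 reads, which allows up to 0.427 RPKM, although PARP9 and DTX3L share the promoter match given above. Their spans overlap by 447 bases, and whether reads were counted by strand is not given in the sources used here.

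The remaining effectors are GTPases, SAMD9 proteins, an exonuclease and a nucleotide kinase, and 4 of the 7 listed fell in WT and 5 in KO. SAMD9L and SAMD9, adjacent paralogs on chromosome 7 that restrict poxviruses, fell in both genotypes. SAMD9L went from 4.54 and 4.07 to 1.23 and 1.57 RPKM in WT, and from 6.71 and 5.10 to 1.71 and 1.67 in KO. SAMD9 went from 3.80 and 6.35 to 1.57 and 1.93 in WT, and from 2.46 and 4.58 to 0.566 and 0.660 in KO. GBP1, a GTPase that coats intracellular pathogens, had 10.7 and 9.12 RPKM in WT without 4-OHT and 3.96 and 2.90 with it, and 8.52 and 16.4 against 0.406 and 2.13 in KO. The 0.406 of treated KO clone 66 came from 1 read. GBP1 fell in KO (log2 change -2.61, limma adjusted p = 0.00471), and the WT change of -1.31 did not pass (adjusted p = 0.0679, and 0.0145 with the clone as a block). ISG20, an exonuclease, and CMPK2, a mitochondrial nucleotide kinase, had at most 33 reads in any library and did not pass in either genotype.

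MX1 and MX2, dynamin-like GTPases that trap viral capsids, lie next to each other on chromosome 21 and fell in both genotypes to a few reads or 0. MX2 went from 1.47 and 2.88 to 0.0376 and 0.0717 RPKM in WT, and from 2.97 and 3.88 to 0 and 0.0645 in KO. MX2 had 92 to 314 reads per library without 4-OHT and 0 to 3 with it, and its mean ratio in WT was 39.8. MX1 had 0.332 and 0.261 RPKM in WT and 1.52 and 1.77 in KO without 4-OHT, from 17, 8, 53 and 117 reads. With 4-OHT it had 0 reads in 3 libraries and 1 read in KO clone 69. Against a floor of 3 reads over both treated WT libraries, MX1 was at least 8.96-fold lower with 4-OHT in WT. Its WT call (limma adjusted p = 0.0231) was lost with the clone as a block (adjusted p = 0.0507) and was made in 9 of 14 alternatives, over which the adjusted p ran from 8.09e-04 to 0.144.

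**Figure D4:**
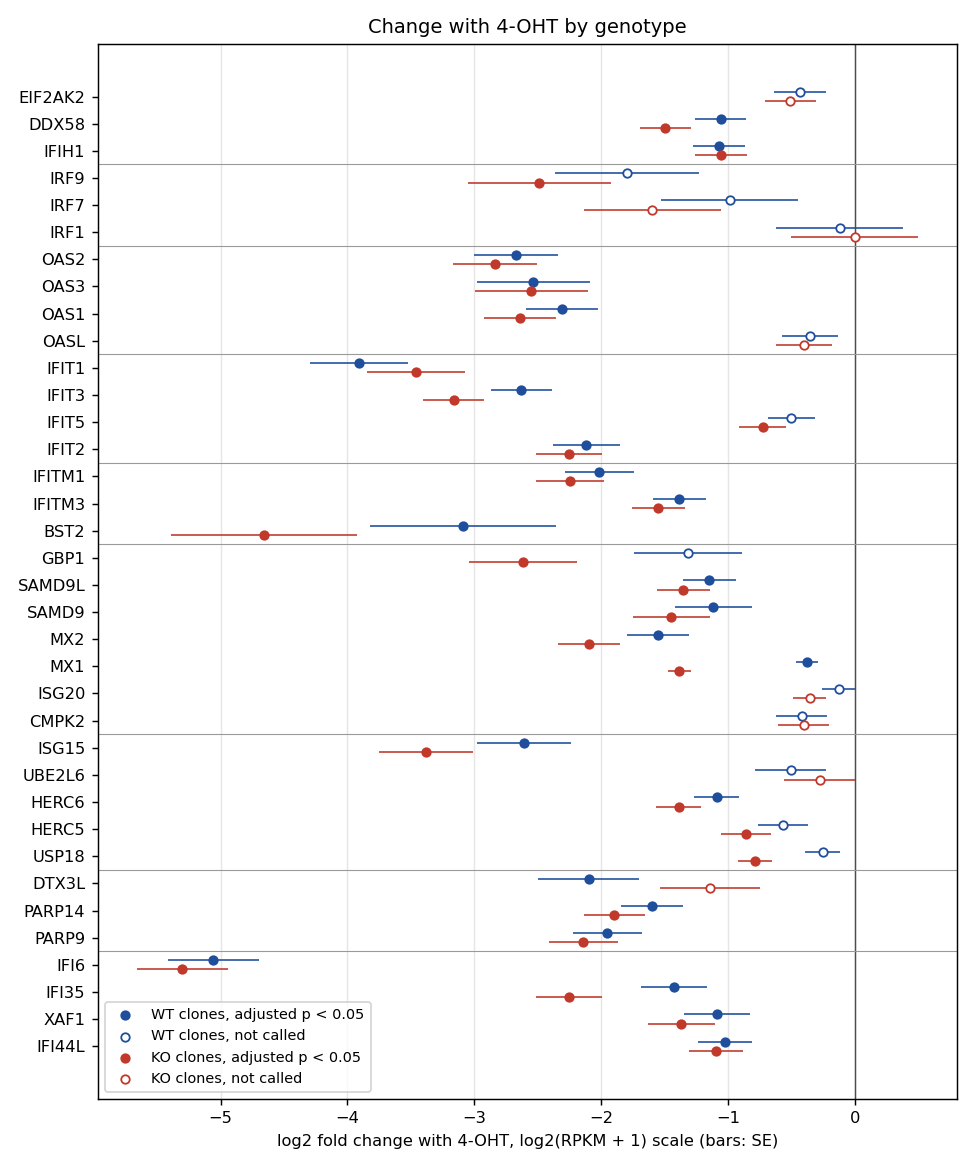
Log2 change with 4-OHT of each listed member (x axis, log2(RPKM + 1) scale; points are limma-trend estimates, bars their SE) in WT and KO clones, filled where the adjusted p was under 0.05. All WT estimates lie below 0, and IFI6 lies farthest left at -5.06 in WT and -5.30 in KO.

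Members with and without an ISRE match were set side by side as a description. The 20 listed members with a match had a median log2 change of -1.49 in WT, and 15 of them fell. The 10 with a window but no match (CMPK2, DDX58, HERC6, IFI35, IRF1, IRF9, OAS1, SAMD9L, UBE2L6 and XAF1) had a median of -1.09, and 6 of them fell. In KO the medians were -1.72 and -1.38, with 17 and 7 members falling. OAS1 and IFI35 thus fell without these letters in their windows, and EIF2AK2 and IFIT5 held them and had ratios under 2.

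The fall of the members was not called different between the genotypes. The test of the difference in log2 change, KO minus WT (interaction), passed for 0 of 36 members by limma-trend and for 0 by limma-voom on recovered reads, where limma-trend called 0% of 8774 genes and limma-voom 4 genes. At an unadjusted p under 0.05, 2 members passed, MX1 and USP18, as did 5.14% of all tested genes. The median of the interaction was -0.24, against -0.002 over all tested genes, and 30 of the 36 values were below 0. The interaction contains the genotype difference without 4-OHT, given below, with its sign reversed. The sign of the interaction is thus not a result separate from that difference, least of all where treated reads were few. MX1 had an interaction of -1.01 ± 0.12 (limma adjusted p = 0.558) with 0 or 1 read in each treated library.

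Without 4-OHT, KO clones had somewhat higher values than WT clones for most members, but none passed the test. For this comparison limma-trend was fitted on the 4 untreated libraries. It called 0 of 36 members (smallest adjusted p = 0.295) and 0 of 8159 genes (0%), and 5 members passed at an unadjusted p under 0.05 (IFITM3, IRF7, ISG20, MX1 and USP18), as did 8.42% of all genes. The log2 difference was above 0 for 31 of 36 members, with a median of 0.31 against -0.01 over all genes. Both KO clones exceeded both WT clones for 16 of 36 members, as for 18.9% of all tested genes. Both KO clones lay below both WT clones for BST2 only, as for 20.6% of all tested genes. An exact permutation test of 2 libraries against 2 can give no p below 0.333, so none is given.

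This difference was carried unequally by the KO clones. Clone 69 was the highest of the 4 untreated libraries for 26 of 36 members, as for 23.9% of all tested genes. The ratio of clone 69 to clone 66 had a median of 1.40 over the members and 1.05 over all tested genes. Among the WT clones, clone 54 exceeded clone 15 with a median ratio of 1.22 over the members and 1.00 over all genes. The spread within a genotype was thus of the same order as the median ratio of the KO mean to the WT mean, 1.30. Without clone 69 the members' median log2 difference was 0.10, and without clone 66 it was 0.55.

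MX1 differed most between the genotypes, and it is named here after its values were seen. Its untreated KO clones had 5.53 times the mean RPKM of the WT clones, with no overlap (log2 difference 1.03 ± 0.14, limma-trend adjusted p = 0.295). By limma-voom the log2 difference was 2.39 (adjusted p = 0.0147), and with all 8 libraries in the limma-trend fit the adjusted p was 0.0359. MX2, its neighbour, had 1.47 and 2.88 RPKM in WT and 2.97 and 3.88 in KO, a ratio of 1.57. ISG20 had 0.155 and 0.325 in WT and 0.911 and 0.541 in KO (ratio 3.02, 4 to 19 reads per library). USP18 had a ratio of 2.86 and IRF7 of 1.96, also without overlap. USP18 had 12 and 6 reads in WT and 15 and 52 in KO, and IRF7 had 18 and 21 in WT and 43 and 50 in KO. Smaller ratios were seen for other members. The clones overlapped for IFI6 (1.36), IFITM1 (1.37), IFIT1 (1.25), ISG15 (1.15) and IRF9 (0.903). They did not overlap for IFITM3 (1.41), IFIT3 (1.34), IFIT5 (1.33) and, with KO lower, BST2 (0.868).

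**Figure D5:**
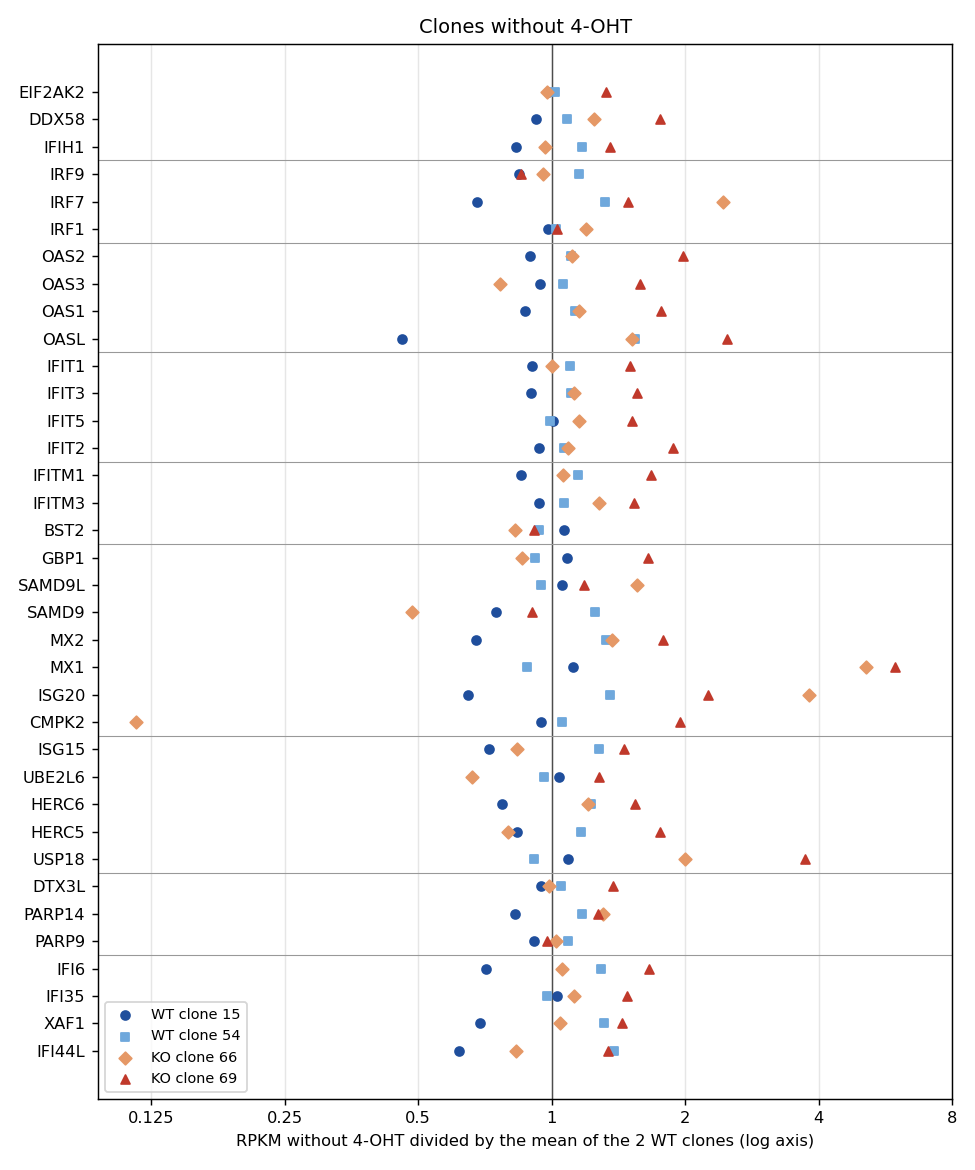
RPKM of each listed member in the 4 libraries without 4-OHT, divided by the mean of both WT clones (log x axis; 1 is the WT mean), with 1 symbol per clone. KO clone 69 is the highest for 26 of 36 members, and MX1 is the member for which both KO clones lie farthest right.

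With 4-OHT, 24 members had enough reads to compare the genotypes, and none passed the test. limma-trend on the 4 treated libraries called 0 of 24 members (smallest adjusted p = 0.822) and 0 of 7758 genes (0%), limma-voom called 0 members, and 2 members, DTX3L and SAMD9, passed at an unadjusted p under 0.05, as did 4.70% of all genes. The median log2 difference was 0.12. Both KO clones exceeded both WT clones for DTX3L, IFIT1, IFIT5 and SAMD9L, 4 of 24 (19.1% of all tested genes). They lay below for GBP1, IFI35 and SAMD9, 3 of 24 (18.5% of all tested genes). With KO clone 69 left out, 5 of 17 members passed, DTX3L and IFIT1 higher and GBP1, IRF9 and OAS3 lower, as did 13.6% of all 6663 genes tested, in a fit of 3 libraries where the only KO library was the shallow one of clone 66, whose lone value is assumed to vary like the others.

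The rest of the pathway was read from lists of genes with known roles. Among 7 ligand genes, 6 were not listed in either table, and IFNL1 was listed only with 4-OHT, with 1 read in WT and 0 in KO. Of the 14 genes of the receptor and JAK-STAT list, 11 were tested, and 2 fell in both genotypes, where 8.06% of all tested genes fell in WT and 10.6% in KO. STAT3, a transcription factor used by many cytokines, was one of these and fell by 0.93 and 1.39 on the log2 scale. The receptor subunits IFNAR1 and IFNAR2 and the kinases JAK1 and TYK2 did not pass the test. IFNAR1 had 1.11 and 1.12 RPKM in WT without 4-OHT and 2.07 and 1.31 with it.

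Of 15 genes that sense nucleic acids or pass their signal on, 13 were tested, of which 2 fell in WT and 4 fell and 1 rose in KO. Over all tested genes 8.06% fell in WT, and 10.6% fell and 17.1% rose in KO. DHX58 (LGP2), the third helicase of the RIG-I family, went from 6.49 and 6.60 to 0.420 and 0.601 RPKM in WT, and from 5.79 and 9.0 to 0.927 and 0.631 in KO. TLR3, the endosomal sensor of double-stranded RNA, also fell in both, to 0 reads in 3 of the 4 treated libraries. TMEM173 (STING) and the kinase IKBKE fell in KO, and LRRFIP1 rose in KO. MAVS, TBK1 and IRF3, which carry the signal of the sensors, did not pass in either genotype.

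Among 38 further interferon-inducible genes, 30 were tested, of which 10 fell and 0 rose in WT (8.06% and 13.5% of all tested genes) and 12 fell and 0 rose in KO (10.6% and 17.1%). LGALS3BP, a secreted glycoprotein, went from 64.3 and 74.1 to 17.8 and 18.2 RPKM in WT, and from 51.9 and 84.6 to 17.5 and 14.7 in KO. HELZ2 and ZNFX1, helicase-like proteins, and DDX60, a cofactor of RIG-I, fell in both genotypes. LY6E, a membrane protein that blocks coronavirus entry, had 50.1 and 67.3 RPKM in WT without 4-OHT and 35.4 and 32.8 with it and did not pass (limma adjusted p = 0.184 in WT and 0.0730 in KO). The median log2 change of this list was -0.44 in WT and -0.60 in KO, against -1.23 and -1.52 for the 36 members.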

How the data were processed

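Ribosome footprints of 8 libraries were analysed. The authors deposited 1 table per treatment, and the submitters' processing notes name STAR and GRCh38. The tables name no unit. The deposited values were read as RPKM over the genomic span of each gene, since value times RefSeq span (GRCh38.p14) summed to about the same total in every library. Low values were whole multiples of 1 step per library within 0.1 of a read for 75.4% to 83.5% of them, which gave approximate reads. Spans came by identifier for 11345 of 11546 and 10884 of 11079 genes, else by symbol or older symbol, and 104 and 103 had none. The sources used here do not give the read counter, the annotation, versions or the treatment of multi-mapping reads.

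Genes with at least 10 reads in at least 2 libraries were tested with limma 3.58.1 (R 4.3.3, limma-trend on log2(RPKM + 1), no clone block). The change with 4-OHT and the interaction used all 8 libraries, and genotypes were compared within 1 table. Tables were prepared with Python 3.11.15 and pandas 2.3.3, and the fits were checked for the sign of changes on simulated data. The simulation changed only genes above the read minimum in the shallowest library, so it does not cover members with few treated reads. Clones 15 and 54 were single WT and 66 and 69 single KO clones, so genotype and clone cannot be told apart. Same-numbered libraries are 1 clone by their labels, and their deviations correlated at 0.14 (WT) and 0.01 (KO) over 8774 genes. A floor is the value of 3 reads and covers counting error only, since PCR copies are not independent molecules. Alternatives were pseudocount 0.1, no read filter, limma-voom, median-ratio scaling, a clone block, other sets of libraries, and each library left out. The members and lists were chosen with earlier results of these data known. Named members were the 3 of highest mean RPKM in each role (a planned ranking per coding length had no lengths to use), with others added after their values were seen. Sequences are from RefSeq. The values of 1 gene of the pathway lists are not reported here, although the lists' counts include it.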

Additional observations from a re-analysis of the deposited data

How the results depend on the processing

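The members that fell with 4-OHT numbered 24 in WT, 22 to 28 in the alternatives that kept all libraries of the comparison, and 13 to 26 when 1 library was left out (13 without untreated WT clone 54 and 15 without treated WT clone 54). In KO they numbered 28, 26 to 32, and 24 to 30. In every one of 15 settings, 13 members fell in WT and 24 in KO, and 0 rose in any. With either library of WT clone 54 left out, fewer of all tested genes fell in WT as well. With the clone as a replicate block, 24 fell in WT (MX1 lost, GBP1 gained), 29 in KO (IRF7 gained) and 0 differed in the interaction. Of all 8774 tested genes, 577 fell in WT and 773 in KO in that fit. limma-voom called 28 in WT and 30 in KO, and the same numbers with the replicate block. Of all 8774 tested genes, limma-voom called 1117 lower in WT and 961 in KO, and 1148 and 1007 with the block. The interaction called 0 members in all 14 settings. Between genotypes without 4-OHT, limma-voom and the fit of all 8 libraries each called 1 member (MX1), and leaving out 1 library gave 0. With 4-OHT, leaving out 1 library gave 0 to 5 members, the 5 without treated KO clone 69. With 1 library left out, the change of IRF1 with 4-OHT in KO ran from -0.86 to 0.86 and the genotype difference of OAS3 with 4-OHT from -0.51 to 0.74, the negative values without treated KO clone 69, and the cause was not tested. Over all genes, limma-trend called 1888 in WT (802 to 3051 over the settings) and 2425 in KO (1103 to 3487). The genotype tests called 0, against 62 without and 54 with 4-OHT by limma-voom and up to 904 with 1 library left out. Median-ratio scaling moved the split of higher and lower calls from 1181 and 707 to 809 and 959 in WT and from 1496 and 929 to 1002 and 1330 in KO, and 27 and 32 members then fell. It put the median log2 change of all genes in WT at -0.02 and limma-voom at 0.22, against 0.06. The shorter ISRE form was in 24 members. Depth limits the treated KO library of clone 66, where 20 of 36 members had under 3 reads.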
